A study of Mus musculus with 16 samples.

Results

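The 31 genes described here encode the enzymes and transporters of glycolysis together with regulators and targets of the cellular response to low oxygen. They were chosen by symbol, with earlier results of these data known. In the counts of each library they filled 32 of 53700 gene lines, since Aldoa stood on 2 lines. The 4 groups of 4 libraries were bulk RNA of microglia, the resident macrophages of the brain, from wild-type (WT) mice at 6 weeks, Ercc1 knockout (KO) mice at 6 weeks, WT mice at 12 weeks and Ercc1 KO mice at 12 weeks, all from whole brain and on a cross of C57Bl6J and FVB. The series title presents these animals as a model of accelerated aging, and Ercc1 encodes a subunit of a DNA repair endonuclease. Cells were released mechanically in the cold and sorted as DAPI-negative, CD11b-high, CD45-intermediate and Ly6c-negative. Each 6-week group held 2 male and 2 female libraries, and each 12-week group held 3 male and 1 female. The labels give the genotype only as WT or KO, so the alleles are unknown from the sources used here. They do not say whether libraries are separate mice, so that p-values measure the spread between these libraries, which may be technical.

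Glycolysis turns glucose into pyruvate in the cytosol. Transporters of the SLC2A family bring glucose in, hexokinase and phosphofructokinase commit it to the pathway, and the later enzymes yield ATP and NADH. Pyruvate is then either oxidised in mitochondria or reduced by lactate dehydrogenase to lactate, which leaves the cell through monocarboxylate transporters. Hypoxia-inducible factor, whose oxygen-regulated subunit is encoded by Hif1a, is marked for destruction by prolyl hydroxylases of the EGLN family while oxygen is present, and it activates many glycolytic genes when it is stable. Its control is therefore largely at the level of the protein, which was not measured here. Inflammatory activation of macrophages is known to go with greater use of glycolysis.

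Hypoxia-inducible factor is known to bind short DNA elements with the core ACGTG or GCGTG, so the promoters of the 4 members called higher in KO below (Pkm, Ldha, Tpi1 and Hif1a) are shown with these letters. Each sequence covers the 250 bases before a start site in RefSeq on GRCm38.p6, on the strand of the gene, and capitals mark every match to ACGTG or GCGTG on either strand. Where a gene had several starts in RefSeq, the window with the most matches was taken. The windows lie at chr7:46845554-46845803 on the plus strand for Ldha, chr12:73907617-73907866 on the plus strand for Hif1a, chr9:59656977-59657226 on the plus strand for Pkm and chr6:124814159-124814408 on the minus strand for Tpi1. They are upstream of exon 1 of the RefSeq transcript concerned. For Pkm and Tpi1 the bases just after the start also occurred in a GENCODE M21 transcript of the gene. For Ldha and Hif1a they did not, so those starts rest on RefSeq alone.
Ldha: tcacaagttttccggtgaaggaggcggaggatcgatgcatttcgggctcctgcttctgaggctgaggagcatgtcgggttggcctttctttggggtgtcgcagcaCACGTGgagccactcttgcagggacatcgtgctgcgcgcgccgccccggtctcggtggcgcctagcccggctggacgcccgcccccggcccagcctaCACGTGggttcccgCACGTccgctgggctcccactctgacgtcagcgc
Hif1a: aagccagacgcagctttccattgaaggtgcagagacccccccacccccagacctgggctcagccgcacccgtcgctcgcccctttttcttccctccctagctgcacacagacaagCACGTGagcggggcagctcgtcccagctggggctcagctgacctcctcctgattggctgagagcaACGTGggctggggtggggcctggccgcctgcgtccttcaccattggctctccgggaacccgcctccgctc
Pkm: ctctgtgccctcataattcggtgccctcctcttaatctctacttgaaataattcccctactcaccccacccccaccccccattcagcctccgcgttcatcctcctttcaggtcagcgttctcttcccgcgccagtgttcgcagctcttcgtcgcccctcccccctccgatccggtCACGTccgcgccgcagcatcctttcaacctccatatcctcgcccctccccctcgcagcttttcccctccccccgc
Tpi1: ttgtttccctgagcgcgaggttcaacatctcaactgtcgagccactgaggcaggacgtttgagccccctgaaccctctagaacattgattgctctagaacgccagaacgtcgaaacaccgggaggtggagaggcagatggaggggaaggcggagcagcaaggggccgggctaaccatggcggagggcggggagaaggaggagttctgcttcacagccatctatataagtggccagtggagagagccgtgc
The Ldha window held 5 matches, 4 of them as 2 copies of the palindrome CACGTG, which matches on both strands. The Hif1a window held 3, the Pkm window 1, and the Tpi1 window none. A second RefSeq window of Ldha, whose following bases do occur in GENCODE M21, held 1 match, to GCGTG rather than ACGTG. A second window of Pkm held none. RefSeq gave 44 windows for 30 members (Slc2a3 is without one), and 35 of the 44 windows (79.5%) held ACGTG or GCGTG, against 38.6% of all 32851 windows of the same length. The core ACGTG alone was in 47.7% of the members' windows and in 16.6% of all windows. The members were picked as genes of glycolysis and the oxygen response, so these shares describe the list and say nothing about KO. Some windows of the same gene overlap, as for Aldoa, Eno1 and Pfkm, so a site can be counted again. These matches describe letters and not occupied sites, and the absence of a match in the Tpi1 window says only that these letters are not there.

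Total counts lay between 7882182 and 22142972 per library. Genes with a count numbered 17249 to 21472 per library. They were fewest in 12-week WT replicates 3 (17249) and 8 (17925) and in 12-week KO replicate 4 (17834). Levels are in CPM, the count scaled to library size, on TMM-scaled library sizes, with mean ± SD over 4 libraries, and changes are log2 ratios of KO to WT with an approximate standard error from edgeR's quasi-likelihood fit to all 16 libraries. A gene is called where its Benjamini-Hochberg adjusted p over all 17090 genes tested was below 0.05. As a check of the labels, Ercc1 lay at 13.5 to 30.6 CPM in WT and 2.83 to 4.54 in KO at 6 weeks, and at 7.46 to 49.2 in WT and 0.425 to 6.77 in KO at 12 weeks. The 12-week WT library labelled 5_6 joins 2 replicate numbers and the label male, yet it held 340 CPM of Xist and 109 CPM of 4 Y-linked genes, where the other 9 male libraries had 0 to 11.5 and 258 to 421; the 4 calls at 12 weeks were also made without it. The 12 microglial markers summed to at least 52300 CPM in every library. In bulk RNA, a shift in the number of cells of a type and a shift in RNA per cell cannot be told apart.

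Of the 31 members, 30 passed the filter on low counts, and Vegfa and the second Aldoa line did not. Egln3 passed only through KO libraries, as WT had 0 counts at 6 weeks and 1 at 12 weeks. It is among the 11 and 9 members at an unadjusted p below 0.05 and the 7 that DESeq2 called at 12 weeks. At 6 weeks 1 member, Pkm, was called higher in KO and none lower, where 0.796% of all genes were called higher and 0.0761% lower. At 12 weeks 4 members, Pkm, Ldha, Hif1a and Tpi1, were called higher and none lower, against 2.03% and 0.954% of all genes. At an unadjusted p below 0.05 stood 11 members at 6 weeks, 10 of them higher in KO, against 7.31% of all genes, and 9 members at 12 weeks, all higher, against 14.4% of all genes. DESeq2 called 4 members at 6 weeks, the same 4 genes that edgeR called at 12 weeks, where it called 2.14% of all genes. At 12 weeks DESeq2 called 7 members and 6.78% of all genes. The difference in the genotype effect between the ages passed for none of the 30 members with edgeR (0.00585% of all genes passed) or DESeq2 (0.322%). At an unadjusted p below 0.05 were 2 members and 4.74% of all genes, so the longer list at 12 weeks is not shown to be a larger effect.

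All 4 KO libraries lay above all 4 WT libraries for 10 members at 6 weeks (4.92% of all genes did so) and for 6 members at 12 weeks (5.13% of all genes). At both ages this held for 5 members, Aldoa, Tpi1, Pkm, Ldha and Hif1a, against 2.33% of all genes. The reverse order, all KO below all WT, was found for Gapdh at 6 weeks (2.96% of all genes) and for no member at 12 weeks. The median log2 change of the tested members was 0.26 at 6 weeks and 0.36 at 12 weeks, where the medians of all genes were -0.02 and -0.03. Changes were positive for 22 of 30 members at each age, against 48.2% and 48.0% of all genes. The sign was positive at both ages for 19 members and negative at both for 5, which were Hk2, Pfkp, Aldoc, Ldhb and Ddit4. Egln3, which passed the filter only through KO libraries, is among the 10, the 22 and the 19. Its separation at 6 weeks rests on 1 count in KO replicate 4. Because the members were chosen with earlier results of these data known, the shares of all genes describe the list and do not test it.

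**Figure D1:**
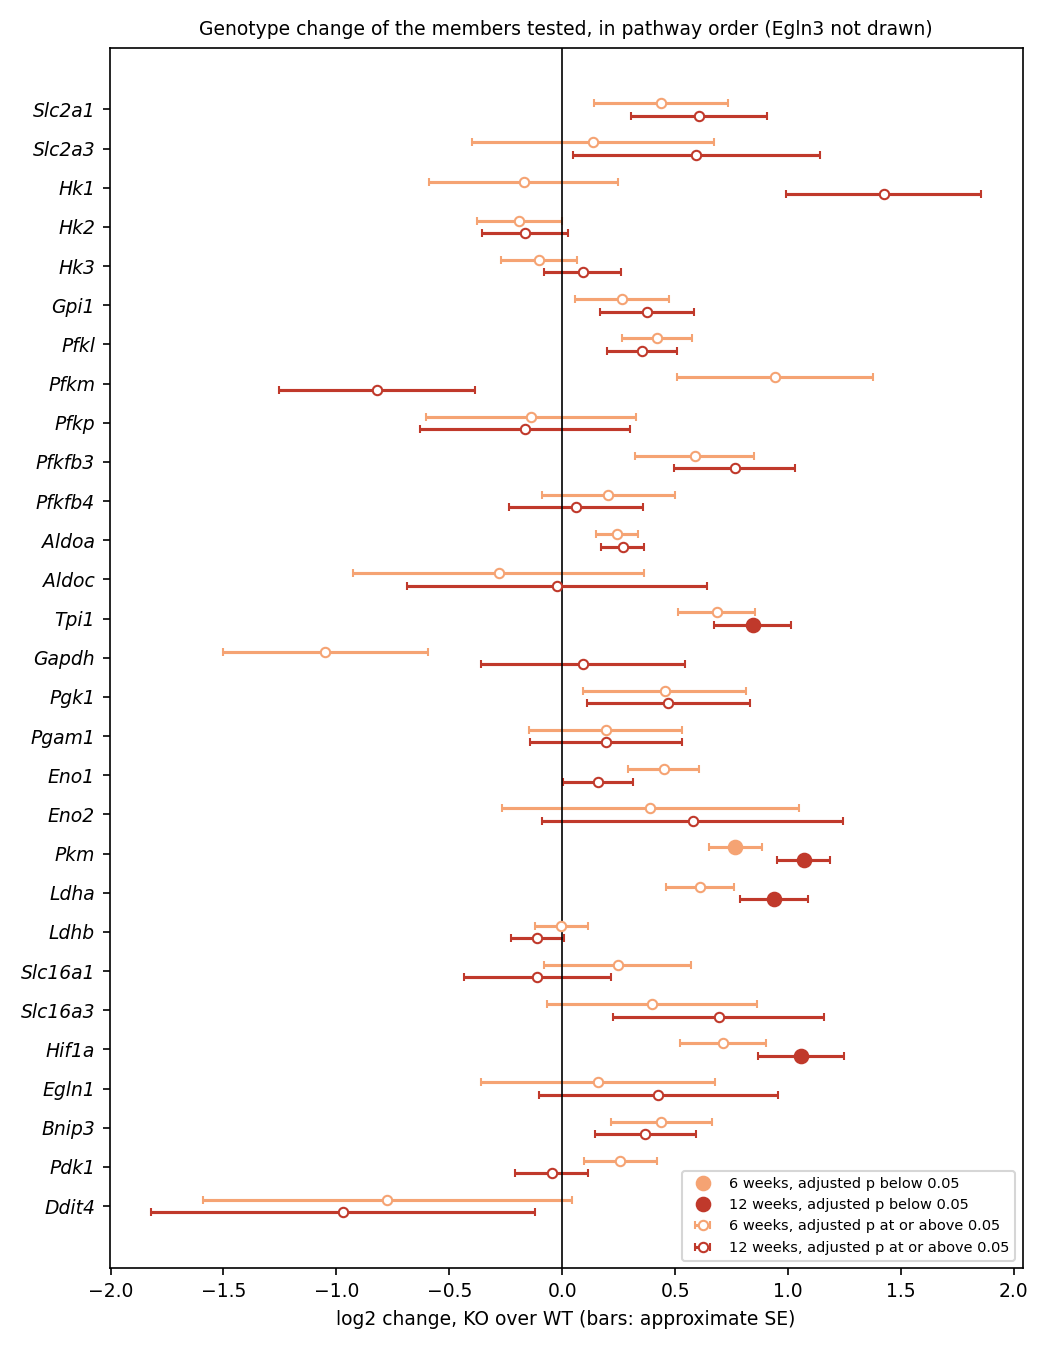
Log2 change of KO over WT (horizontal axis) for 29 of the 30 tested members in pathway order, at 6 weeks (orange) and 12 weeks (red), with bars of the approximate standard error from edgeR; Egln3 is left out because WT had at most 1 count. Filled points passed an adjusted p of 0.05 and are Pkm at both ages and Tpi1, Ldha and Hif1a at 12 weeks.

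Glucose uptake and its trapping by hexokinase held no called member. Slc2a1, which encodes the widely expressed transporter GLUT1, had 61.1 ± 14.5 CPM in 6-week WT and 82.7 ± 5.96 in 6-week KO, then 48.9 ± 20.9 and 75.1 ± 28.6 at 12 weeks. Its log2 changes of 0.44 ± 0.30 and 0.61 ± 0.30 did not pass (edgeR adjusted p = 0.909 and 0.382), and the libraries overlapped at both ages. Slc2a3, which encodes the high-affinity transporter GLUT3, was low, with group means between 5.16 and 13 CPM. Among the hexokinases, which phosphorylate glucose, Hk2 and Hk3 made up nearly all of the level per exon length, with Hk2 at 36.5 and Hk3 at 29.9 CPM per kb over the 16 libraries and Hk1 at 4.21. Hk2, the inducible form, had log2 changes of -0.19 ± 0.19 and -0.16 ± 0.19, and Hk3 had -0.10 ± 0.17 and 0.09 ± 0.17. The summed hexokinase counts were 362 ± 20.6 and 324 ± 36.4 CPM in WT and KO at 6 weeks and 309 ± 35.6 and 308 ± 50.8 at 12 weeks.

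Hk1, the constitutive hexokinase, differed from Hk2 and Hk3 in its values by age. It stood at 26.4 ± 5.41 CPM in WT and 23.4 ± 3.35 in KO at 6 weeks, and at 8.68 ± 4.79 in WT and 23.3 ± 15.9 in KO at 12 weeks. All 12-week WT libraries lay below all 6-week WT libraries, and the 12-week KO mean rests on replicate 4 at 47.1 CPM, since the other 3 lay between 15 and 15.9. The KO over WT change at 12 weeks was 1.42 ± 0.43 on the log2 scale (edgeR adjusted p = 0.0962), and the difference between the ages was 1.60 ± 0.60 (unadjusted p = 0.0175, adjusted p = 1). Hk1 was called at 12 weeks by DESeq2, and by edgeR once 12-week WT replicate 4, its highest library at 15.4 CPM, was left out.

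In the middle of the pathway the liver-type phosphofructokinase Pfkl dominated, with 84.0 ± 5.81% of the phosphofructokinase 1 counts in 6-week WT and 87.1 ± 3.92% in 12-week KO. Phosphofructokinase 1 carries out the committed step of glycolysis. Pfkl had 174 ± 23.6 and 231 ± 15 CPM in WT and KO at 6 weeks, with all KO libraries above all WT libraries, and 174 ± 44.5 and 221 ± 35.2 at 12 weeks, where they overlapped. Its log2 changes of 0.42 ± 0.15 and 0.35 ± 0.15 did not pass (edgeR adjusted p = 0.423 and 0.299). The muscle-type Pfkm was low, between 9.91 and 22.2 CPM in the group means, and its log2 change was 0.94 ± 0.43 at 6 weeks and -0.82 ± 0.43 at 12 weeks. That difference between the ages, -1.77 ± 0.61, had an unadjusted p of 0.0114 and an adjusted p of 1. The platelet-type Pfkp overlapped between genotypes at both ages.

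Pfkfb3 and Pfkfb4 encode bifunctional enzymes that make and remove the sugar bisphosphate activating phosphofructokinase 1, and Pfkfb3 is the more strongly glycolytic of the pair. Pfkfb3 had 142 ± 31 and 213 ± 42 CPM in WT and KO at 6 weeks and 116 ± 30.7 and 197 ± 66.9 at 12 weeks. Its log2 changes were 0.59 ± 0.27 and 0.76 ± 0.27 (edgeR adjusted p = 0.642 and 0.166), with 1 KO library inside the WT range at each age. DESeq2 called it at 12 weeks. Pfkfb4 had log2 changes of 0.20 ± 0.30 and 0.06 ± 0.30. Gpi1, the isomerase between hexokinase and phosphofructokinase, had log2 changes of 0.26 ± 0.21 and 0.38 ± 0.21.

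Aldolase and triose phosphate isomerase come next, and both had their KO libraries above their WT libraries at both ages. Aldoa, the main aldolase with 95.5% to 97.6% of the aldolase counts in the group means, had 424.5, 460.1, 461.6 and 475.7 CPM in WT and 539.7, 499.6, 539.2 and 575.8 in KO at 6 weeks, and 397.0, 353.2, 423.4 and 412.2 in WT and 434.4, 423.6, 522.8 and 528.9 in KO at 12 weeks. The groups did not overlap at 6 weeks, and at 12 weeks the lowest KO library and the highest WT library were nearly level. The log2 change of 0.24 ± 0.09 at 6 weeks and 0.27 ± 0.09 at 12 weeks did not pass (edgeR adjusted p = 0.486 and 0.168). Aldoc, an aldolase that is also an astrocyte marker, had group means of 13.7 to 18.6 CPM and no ordering by genotype.

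Tpi1, which interconverts the sugar phosphates that aldolase releases, was at 51.1, 74.9, 55.4 and 75.4 CPM in WT and at 111.0, 81.1, 102.7 and 119.7 in KO at 6 weeks, and at 57.4, 61.0, 50.8 and 53.2 in WT and at 95.9, 91.4, 89.6 and 123.2 in KO at 12 weeks. Every KO library exceeded every WT library of its age, with the wider gap at 12 weeks. Tpi1 rose at 12 weeks by 0.84 ± 0.17 on the log2 scale (edgeR adjusted p = 0.0117). The change at 6 weeks was 0.68 ± 0.17 (adjusted p = 0.0953). The 12-week call was lost when only the 12-week groups entered the fit (adjusted p = 0.0575) and when WT replicates 3 and 8 were left out together (adjusted p = 0.0684).

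The enzymes that follow triose phosphate isomerase had low or ambiguous counts. Gapdh, an enzyme often used as a reference for its abundance, had 9.71 ± 1.69 CPM in WT and 4.71 ± 1.31 in KO at 6 weeks, and 6.01 ± 1.70 in WT and 6.42 ± 3.21 in KO at 12 weeks. All 4 KO libraries lay below all 4 WT libraries at 6 weeks, and the log2 change was -1.05 ± 0.46 (edgeR adjusted p = 0.587), while at 12 weeks it was 0.09 ± 0.45. Pgk1, which makes the first ATP of the pathway, had group means of 5.67 to 8.02 CPM, and the mutase Pgam1 had 9.11 to 10.6 CPM. Pgk1 had log2 changes of 0.45 ± 0.36 and 0.47 ± 0.36. Per exon length, Gapdh, Pgk1 and Pgam1 stood at 4.49, 3.74 and 5.56 CPM per kb over the 16 libraries, against 45.8 for Tpi1.

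Sequence that these genes share with copies elsewhere in the genome was measured for that reason. In GENCODE M21 transcripts, 82.5% of the 50-base stretches of Gapdh also occurred in other genes, 213 of the 218 being pseudogenes. The share was 72.2% for Eno1, 68.0% for Pgk1, 41.5% for Pgam1, 34.4% for Pkm, 27% for Ldhb, 16.6% for Ldha, 13.5% for Aldoa, 7.51% for Tpi1 and 2.18% for Hif1a. It was above 10% for 10 members and 0 for 15. How the authors treated reads that fit several genes is not given in the sources used here, so the levels and changes of the members with shared stretches are uncertain, those of Gapdh, Pgk1, Pgam1 and Eno1 the most. Of 17 listed copies of members, 8 were tested and all 8 had positive log2 changes at both ages, with medians of 0.51 and 0.51. Of all genes, 48.2% and 48.0% had positive changes at 6 and 12 weeks. Reads of a member may be counted to its copy, so the 8 copies are not shown to be separate results. Of these, Eno1b, an intronless copy of Eno1, was called higher at 12 weeks (0.59 ± 0.15, edgeR adjusted p = 0.0496), a call lost in 11 of 16 other settings, and Ldha-ps2 and Tpi-rs11 had log2 changes of 0.88 and 0.79 that did not pass.

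**Figure D2:**
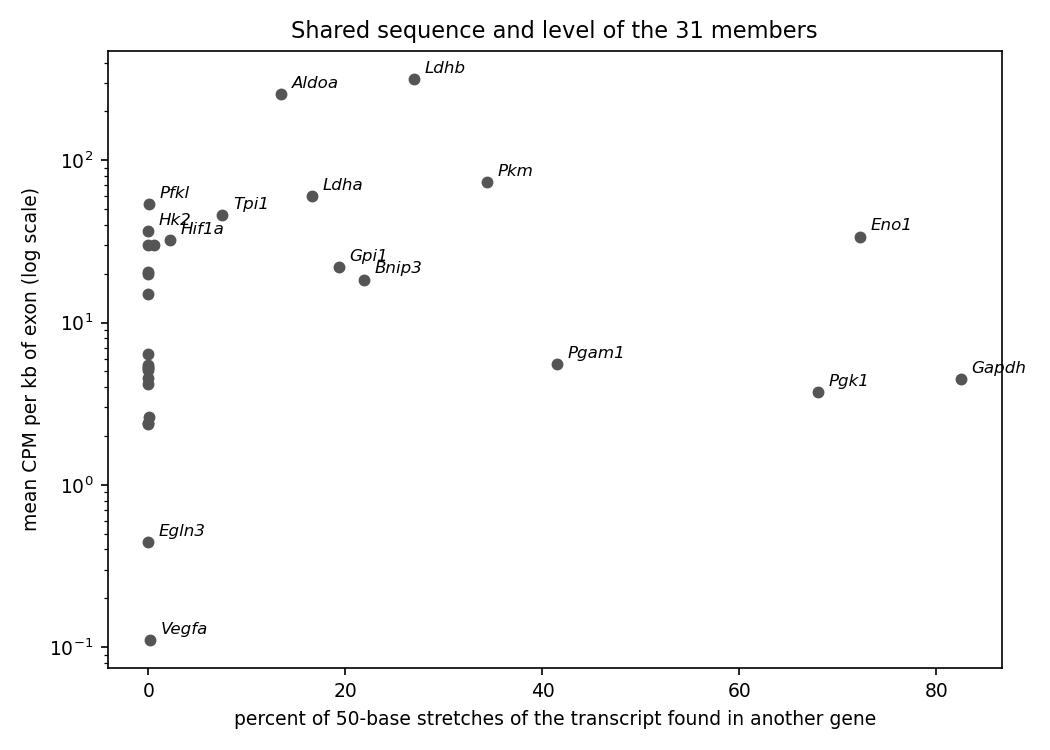
Mean level over 16 libraries in CPM per kb of exon (vertical log axis) against the percent of 50-base stretches found in another gene (horizontal axis), 1 point per member. Gapdh, Pgk1 and Pgam1 combine shares of 41.5% to 82.5% with levels of 3.74 to 5.56 CPM per kb, while Aldoa and Ldhb reach 256 and 318 CPM per kb at shares of 13.5% and 27%.

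Eno1, the main enolase, was at 69.6 ± 4.29 and 95.0 ± 5.16 CPM in WT and KO at 6 weeks and at 85.5 ± 18.6 and 95.2 ± 10.7 at 12 weeks. The groups were separate at 6 weeks and overlapped at 12 weeks, and the log2 changes of 0.45 ± 0.16 and 0.16 ± 0.16 did not pass (edgeR adjusted p = 0.378 and 0.756). Eno1 and Eno1b together had 120 ± 6.34 and 160 ± 11.8 CPM at 6 weeks and 124 ± 22.6 and 153 ± 13.3 at 12 weeks. Eno2, the neuronal enolase, had group means of 5.32 to 9.16 CPM.

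Pkm encodes pyruvate kinase of the muscle type, which makes pyruvate in the last step of glycolysis, and its splice forms M1 and M2 are not separated by gene counts. Its level was 137.9, 179.5, 157.3 and 151.8 CPM in WT and 260.2, 254.0, 252.8 and 297.9 in KO at 6 weeks, and 113.1, 119.4, 107.8 and 100.9 in WT and 218.6, 213.2, 218.0 and 275.9 in KO at 12 weeks. The groups were far apart at both ages, replicate 4 was the highest KO library each time, and all 12-week WT libraries lay under all 6-week WT libraries. Pkm rose 1.70-fold at 6 weeks (log2 0.77 ± 0.12, edgeR adjusted p = 0.00266) and 2.10-fold at 12 weeks (1.07 ± 0.12, adjusted p = 7.36e-05). The difference between these changes was 0.30 ± 0.17 (unadjusted p = 0.085, adjusted p = 1).

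Ldha encodes the lactate dehydrogenase subunit that favours the making of lactate. It stood at 78.6, 87.2, 100.5 and 91.8 CPM in WT and 144.6, 104.7, 159.5 and 136.7 in KO at 6 weeks, and 101.2, 78.8, 72.5 and 66.2 in WT and 145.4, 147.8, 149.7 and 163.8 in KO at 12 weeks. KO and WT libraries did not overlap at either age, and 6-week KO replicate 2 was close to the highest WT library. Ldha rose at 12 weeks by 0.94 ± 0.15 on the log2 scale (edgeR adjusted p = 0.00204). At 6 weeks the change was 0.61 ± 0.15 (adjusted p = 0.0865), and it passed once KO replicate 2 was left out.

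Ldhb, the subunit that favours the use of lactate, was the more abundant per exon length, at 318 CPM per kb against 60.3 for Ldha. Its level was 412 ± 48.9 and 411 ± 34.5 CPM in WT and KO at 6 weeks and 433 ± 53.1 and 401 ± 42.1 at 12 weeks. The log2 changes were -0.00 ± 0.12 and -0.11 ± 0.12, and the libraries overlapped. Ldha thus made up 17.9 ± 1.84% of the lactate dehydrogenase counts in 6-week WT and 24.8 ± 2.58% in 6-week KO, then 15.6 ± 2.62% in 12-week WT and 27.5 ± 1.81% in 12-week KO. The ranges of that share, 16.5% to 20.6% against 21.7% to 27.4% at 6 weeks and 13.2% to 19.3% against 25% to 29.1% at 12 weeks, did not overlap.

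**Figure D3:**
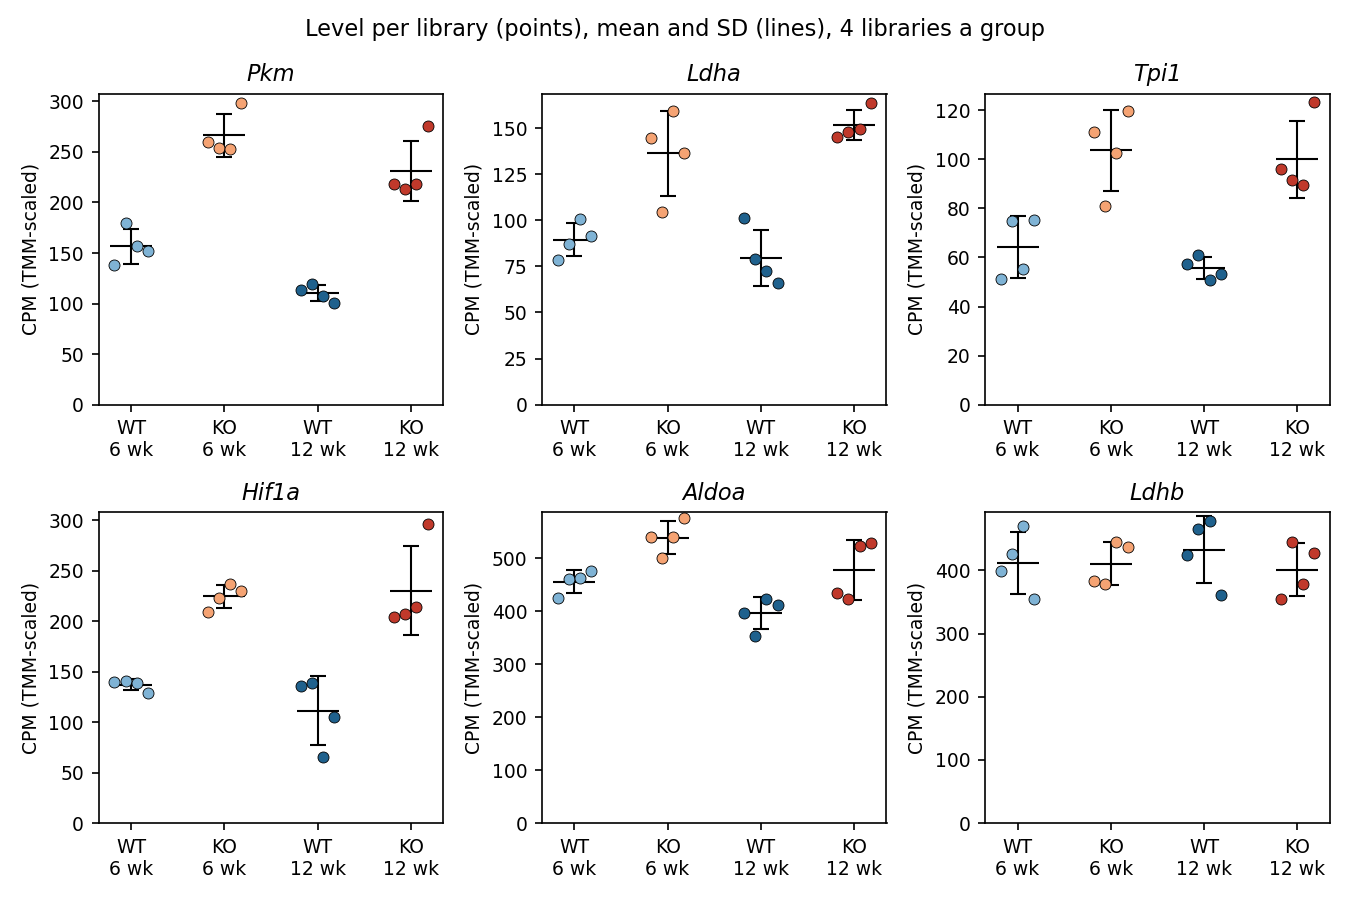
CPM in each library (points) with the mean and SD of each group (lines) for Pkm, Ldha, Tpi1, Hif1a, Aldoa and Ldhb, 4 libraries per group and each axis starting at 0. For the first 5 genes all KO points lie above all WT points of the same age, with Pkm at 253 to 298 CPM in 6-week KO against 138 to 180 in 6-week WT, and for Ldhb they overlap.

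**Figure D4:**
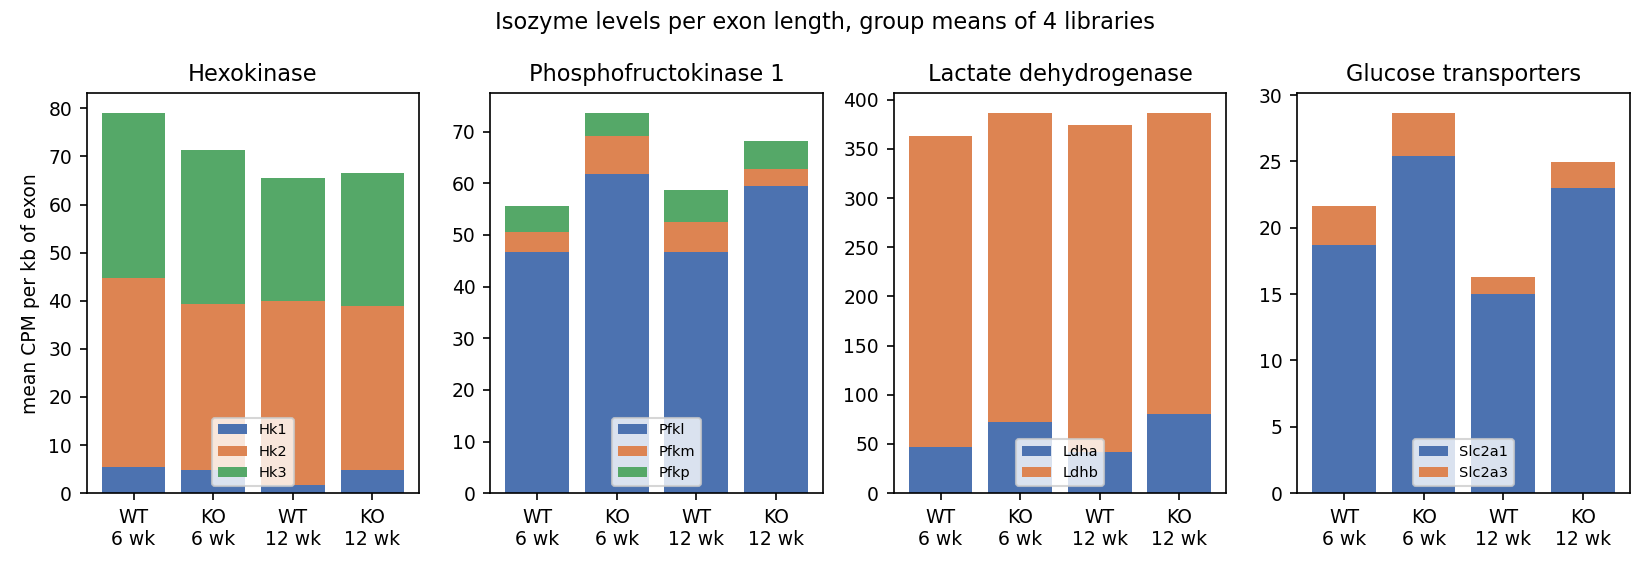
Mean CPM per kb of exon (bars stacked by gene, group means of 4 libraries) for hexokinases, phosphofructokinase 1, lactate dehydrogenase and the glucose transporters in the 4 groups. Ldhb makes up most of the lactate dehydrogenase bar in every group, and the Ldha part is 47.2, 72, 42.1 and 80.0 CPM per kb in 6-week WT, 6-week KO, 12-week WT and 12-week KO.

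The summed counts of the 18 glycolytic enzyme and lactate dehydrogenase genes were 1928 ± 92.9 CPM in WT and 2270 ± 135 in KO at 6 weeks, and 1781 ± 134 in WT and 2132 ± 175 in KO at 12 weeks. The sums did not overlap between genotypes at either age and were 1.18 and 1.20 times as high in KO. Aldoa and Ldhb were their largest parts, at 456 and 412 CPM in 6-week WT. Gapdh, Pgk1 and Pgam1 added little, with group means of at most 9.71, 8.02 and 10.6 CPM. Whether sums of other genes separate as well was not tested. Among the enzyme steps, the KO to WT ratio of summed counts was lowest for hexokinase, at 0.894 and 0.997, apart from the weakly counted Gapdh at 6 weeks, and it was highest for pyruvate kinase, at 1.70 and 2.10. Triose phosphate isomerase stood next, at 1.61 and 1.80. The lactate exporters were low and variable. Slc16a3, which encodes the exporter MCT4, had 19.1 ± 11.3 and 26.2 ± 12.1 CPM in WT and KO at 6 weeks and 13.4 ± 4.69 and 22.6 ± 7.90 at 12 weeks, where all KO libraries lay above all WT libraries by a small margin (17.8 against 17.5 CPM). Its log2 changes of 0.40 ± 0.46 and 0.69 ± 0.47 did not pass (edgeR adjusted p = 1 and 0.58), and those of Slc16a1, which encodes MCT1, were 0.25 ± 0.32 and -0.11 ± 0.33.

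Hif1a RNA followed the same order as Pkm and Ldha. It was at 139.8, 141.0, 138.8 and 128.8 CPM in WT and at 209.5, 222.9, 236.5 and 229.5 in KO at 6 weeks, and at 135.9, 138.9, 65.6 and 104.9 in WT and at 203.9, 207.5, 213.6 and 296.6 in KO at 12 weeks. All KO libraries were above all WT libraries at both ages, and the 12-week groups were spread more widely, by a low WT library 5_6 and a high KO replicate 4. Hif1a rose at 12 weeks by 1.06 ± 0.19 on the log2 scale (edgeR adjusted p = 0.00505). At 6 weeks the change was 0.71 ± 0.19 (adjusted p = 0.133), and DESeq2 called it there. The 12-week call was lost with only the 12-week groups in the fit (adjusted p = 0.0947) and without WT replicates 3 and 8 and KO replicate 4 together (adjusted p = 0.0585).

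The oxygen sensors divide into a moderate and a rare transcript. Egln1, the main prolyl hydroxylase that marks the factor, had group means of 14.8 to 27.5 CPM with overlapping libraries. Egln3, a hydroxylase that is itself a well-known target of the factor, had 0 counts in the 4 libraries of 6-week WT and 90 counts in 6-week KO. The pooled KO level of Egln3 was 1.65 CPM, 21.5-fold above a floor of 3 counts over the WT group, 0.0771 CPM. The 4 KO libraries had 4.8, 0.5, 3.4 and 0.1 CPM, and replicate 4 lay below that floor at 0.0575 CPM. Replicates 1 and 3 held 49 and 32 of the 90 counts. At 12 weeks it had 1 count in WT and 87 counts in 3 of 4 KO libraries, a ratio of 128 with a counting interval of 22.4 to 5110. The KO libraries thus ran from none or nearly none to 4.8 CPM at each age, and the change did not pass (edgeR adjusted p = 0.235 at 6 weeks and 0.143 at 12 weeks). Egln3 was called at 12 weeks by DESeq2, and at both ages by edgeR with no filter on low counts. As Egln3 passed the main filter only through KO libraries, the DESeq2 call is no independent support. The interval and the floor reflect counting error alone, because they pool the counts of each group and leave out the spread between its libraries. Any PCR copies counted as reads would make that error larger still.

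Bnip3, Vegfa, Pdk1 and Ddit4, the other members of the oxygen response, were not called at either age. Bnip3, a mitophagy receptor, had log2 changes of 0.44 ± 0.22 and 0.37 ± 0.22. Vegfa, the vascular growth factor, was barely detected, with 4 counts in 6-week WT, 10 in 6-week KO, 52 in a single library of 12-week WT and 24 in 12-week KO, and it was not tested. Pdk1, a kinase that holds back pyruvate dehydrogenase and so the entry of pyruvate into mitochondria, had 105 ± 5.08 and 126 ± 14 CPM in WT and KO at 6 weeks, with no overlap, and 90.5 ± 20.5 and 87.9 ± 10.02 at 12 weeks. Its log2 changes were 0.26 ± 0.16 and -0.05 ± 0.16. Ddit4, a stress-induced brake on mTORC1, had group means of 2.13 to 6.28 CPM and negative log2 changes of -0.77 ± 0.82 and -0.97 ± 0.85.

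**Figure D5:**
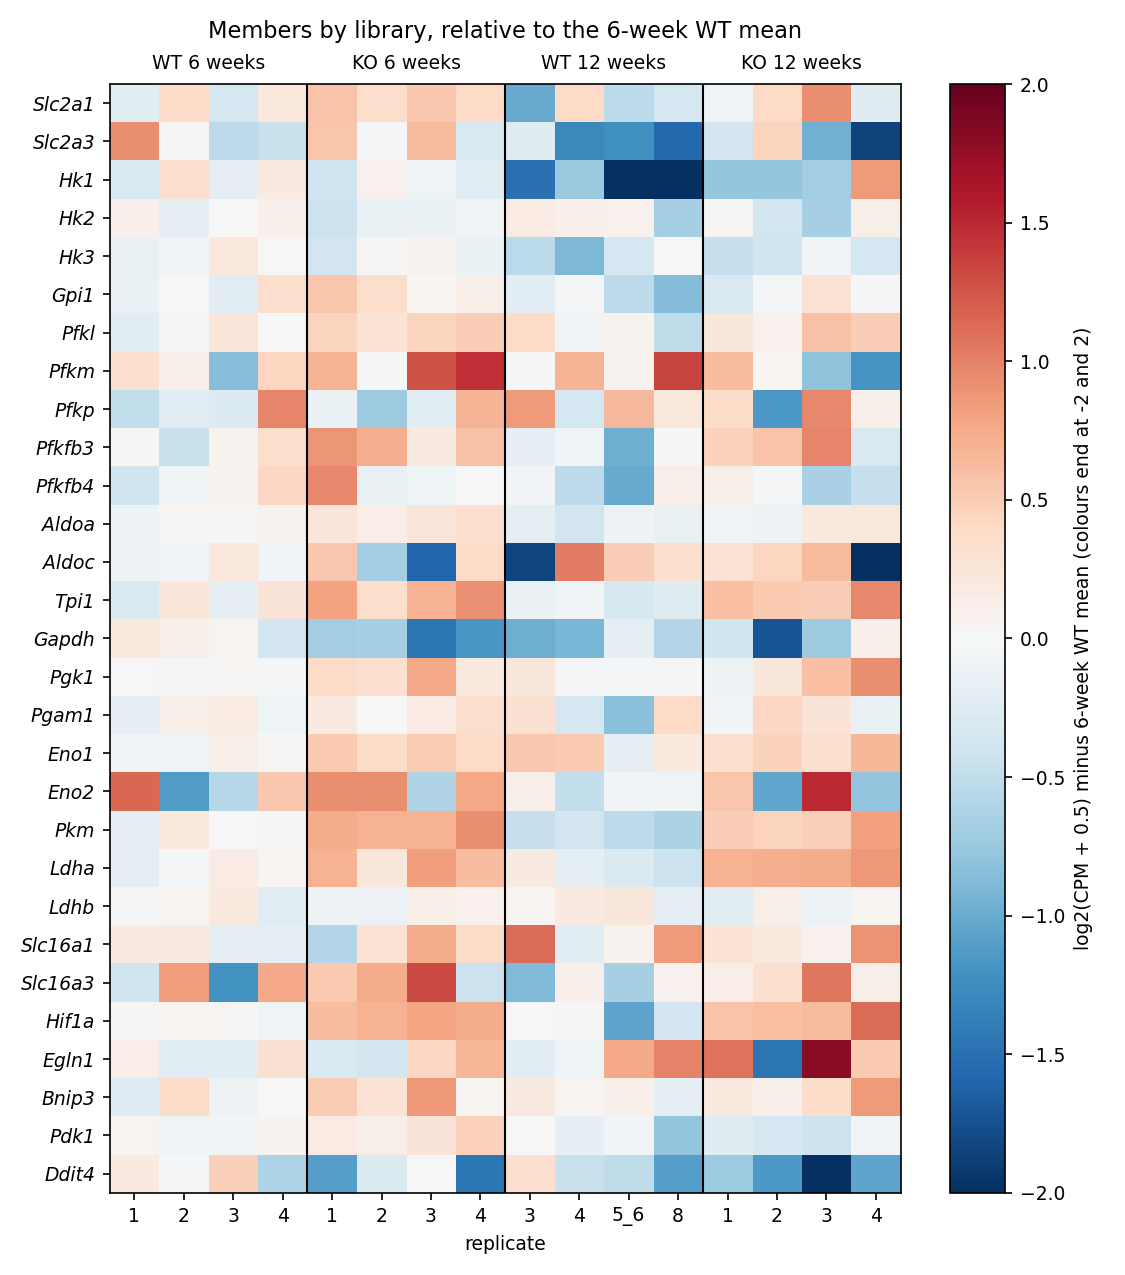
Level of 29 tested members (rows, pathway order) in each of the 16 libraries (columns, by group and replicate) as log2(CPM + 0.5) minus the mean of 6-week WT, with colours ending at -2 and 2. Rows for Tpi1, Pkm, Ldha and Hif1a are on the red side in every KO library, and the Ldhb row is pale throughout. In 6-week KO replicate 2 the red of Tpi1 and Ldha is faint. The Hk1 row is blue in all 12-week WT libraries and in every 12-week KO library except replicate 4.

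With age, no member was called in either genotype, by edgeR at 0 of 30 in KO (0.0234% of all genes were called) and 0 of 30 in WT (0.0117%). At an unadjusted p below 0.05 were 2 members in KO, against 8.8% of all genes, and 3 in WT, against 7.44%, all lower at 12 weeks. DESeq2 called 0 members in KO (1.58% of all genes) and 2, Pkm and Hk1, in WT (0.889% of all genes). All 12-week WT libraries lay below all 6-week WT libraries for Hk1, Aldoa and Pkm, 3 members, where 3% of all genes did so. In WT, Pkm had a log2 change with age of -0.50 ± 0.12 (edgeR adjusted p = 0.263), Hk1 of -1.60 ± 0.44 (adjusted p = 0.356) and Aldoa of -0.20 ± 0.10. In KO, Pdk1 alone among the members had all its 12-week libraries below its 6-week libraries (3.51% of all genes), with a log2 change of -0.53 ± 0.17 (adjusted p = 0.298). The comparisons of genotype and of age share libraries, so a low 12-week WT level enters both the change with age and the change with genotype.

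Around the members, further genes of sugar use and of the oxygen response were counted by list. Of 33 other isozymes and sugar transporters, 21 were tested and 1 was called, at 12 weeks. This was Slc2a5, which encodes the fructose transporter GLUT5 and is a marker of microglia, and it fell by 0.80 ± 0.15 on the log2 scale (edgeR adjusted p = 0.00597). Its level was 772 ± 91.4 and 562 ± 67.4 CPM in WT and KO at 6 weeks and 662 ± 103 and 382 ± 78.4 at 12 weeks. None of the 15 genes of the pentose phosphate and glycogen branches was called at either age. The same held for 19 tested genes listed for pyruvate entry into mitochondria, a list that also holds shuttle enzymes and a carrier (Mdh1, Mdh2, Got1, Got2, Gpd1, Gpd2 and Slc25a1). None of 29 other subunits, regulators and targets of hypoxia-inducible factor was called, with medians of 0.08 and 0.07; Hmox1, the haem oxygenase, came nearest at 12 weeks (1.04 ± 0.27, adjusted p = 0.0533). A list of 21 genes held regulators of mTORC1 and AMPK together with Myc, a transcription factor that drives glycolytic genes. Myc was called higher at 12 weeks (0.70 ± 0.16, edgeR adjusted p = 0.022), and Prkab1, an AMPK subunit, lower (-0.98 ± 0.19, adjusted p = 0.00816). No other gene of that list was called. With only the 12-week groups in the fit, the calls of Slc2a5, Prkab1 and Myc were lost (adjusted p = 0.0747, 0.085 and 0.13). Slc2a5 and Prkab1 kept their calls with each of the 8 libraries left out in turn, while Myc lost its call without WT replicate 3 (adjusted p = 0.0634), WT library 5_6 (0.0619) or KO replicate 2 (0.0666).

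Markers of microglia and of other cells were counted beside Pkm, Ldha, Tpi1 and Hif1a. The 9 markers of border-associated macrophages, which lie outside the brain tissue proper, summed to 52.4 to 95.3 CPM in WT and 136 to 300 in KO at 6 weeks, and 8.87 to 57.6 in WT and 127 to 209 in KO at 12 weeks. All 9 had positive log2 changes at both ages, with medians of 1.71 and 2.28. Of the 9, Ccl8 was called higher at 6 weeks (0.796% of all genes were), and 2, Ccl8 and Ms4a7, at 12 weeks (2.03%). The 7 monocyte markers summed to 6.17 to 18.7 and 9.37 to 36.7 CPM at 6 weeks and to 3.14 to 11.4 and 14.9 to 31.6 at 12 weeks, with 0 called. Only 3 of the 7 were tested, and 3 had no count in KO at each age, Ly6c2 among them. At 12 weeks the means in WT and KO were 0.749 and 7.93 CPM for Plac8, 0 and 3.21 for Fn1, and 1.88 and 1.08 for Vcan. The 12 microglial markers summed to 72600 to 79400 and 60700 to 71200 CPM at 6 weeks and to 66100 to 73600 and 52300 to 54900 at 12 weeks. Of these 12, P2ry12 was called lower at 6 weeks, and P2ry12, Gpr34 (log2 -0.73) and Cx3cr1 (log2 -0.48) were called lower at 12 weeks. The 8 endothelial markers, a list that holds Slc2a1, summed to 116 to 164 CPM in WT and 98.7 to 139 in KO at 6 weeks, and to 40.7 to 144 and 91 to 166 at 12 weeks. Flt1 and Ly6a were called higher at 12 weeks, while Pecam1 had negative log2 changes of -1.26 and -0.72 and Kdr of -0.16 and -0.49, none of which passed, and Cldn5 and Cdh5 were near 0. The 6 erythroid markers summed to 9.71 to 50.3 CPM in WT and 2.45 to 55.1 in KO at 6 weeks, and to 2.38 to 34.2 and 13.2 to 113 at 12 weeks, with a median log2 change of 3.07 at 12 weeks and 0 called. The 9 astrocyte markers had overlapping sums and median log2 changes of -0.13 at 6 weeks and -0.02 at 12 weeks, with 0 called. Unlike these medians, Gfap had 0 CPM in all WT and 3.12 to 13 CPM in KO libraries at 6 weeks. At 12 weeks Gfap had 0 to 3.77 CPM in WT and 6.70 to 32.2 in KO, without passing (edgeR adjusted p = 0.0953 and 0.257). The 7 neutrophil markers reached 62.3 CPM in a 6-week WT library, of which Ngp gave 46.5, and at most 8.72 CPM in the other groups, with Ly6g and Mmp8 at 0 in every library. The 8 markers of T and NK cells summed to at most 11 CPM, mostly from Klrd1 in WT, with Cd8a, Nkg7 and Trbc2 at 0 in every library. The part of these other cells in the results for the members was not tested.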

How the data were processed

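RNA of FACS-sorted microglia was measured in 16 libraries, made with a low-input kit per the labels' protocols. The authors deposited raw counts per gene and library; the submitters' processing notes name HTSeq 0.11.0, TopHat, Picard 2.13.2, SAMtools 1.10, cutadapt 2.10, FastQC 0.11.9 and the build GRCm39. Strand setting and annotation release: not given in the sources used here.

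From the counts, genes were kept with filterByExpr by group (minimum count 10). Libraries were scaled by TMM, and a robust quasi-likelihood model with a term for each group and for sex was fitted to all 16 libraries in edgeR 4.0.16 (R 4.3.3), tested two-sided with Benjamini-Hochberg adjustment over all genes tested. The script was tested on simulated data. Standard errors are the absolute log2 change over the root of F. Alternatives were DESeq2 1.42.0, other scaling, filters, models and left-out libraries. Members and lists were chosen with earlier results of these data known. Every member is accounted for, with values per library where it was called or its genotypes were separate at both ages; of other lists, genes called in a genotype comparison are named, and Hmox1, Ldha-ps2, Tpi-rs11 and uncalled cell markers were named after their values were seen. Exon lengths and 50-base stretches come from GENCODE M21 on GRCm38, matched by Ensembl identifier, and promoters from RefSeq.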

Additional observations from a re-analysis of the deposited data

Results flagged for a closer look

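Within the 4 libraries of a group, 11 of 118 member groups held a library set apart from the other 3 by Dixon's criterion, where chance gives about 1 in 20. In 12-week KO, replicate 4 was high for 3 members, Hk1 at 47.1 CPM (others 15 to 15.9), Pkm at 276 CPM (others 213 to 219) and Hif1a at 297 CPM (others 204 to 214), and replicate 3 was high for Slc16a3 at 34.3 CPM (others 17.8 to 20.4). Without 12-week KO replicate 4, the same 4 members were called at 12 weeks as with it. In 6-week KO, Pkm was high in replicate 4 at 298 CPM (others 253 to 260), Pfkfb4 was high in replicate 1 at 104 CPM (others 48.2 to 53.9), and Eno2 was low in replicate 3 at 3.63 CPM (others 10.2 to 11.4).

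In 12-week WT, Hk2 was low in replicate 8 at 138 CPM (others 235 to 247), Pfkfb3 was low in the library labelled 5_6 at 70.3 CPM (others 124 to 135), and Pgk1 was high in replicate 3 at 6.70 CPM (others 5.48 to 5.51). In 6-week WT, Pfkp was high in replicate 4 at 39.0 CPM (others 13.7 to 16.9).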

How the results depend on the processing

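At 6 weeks, the number of members called was 1 with edgeR, 4 with the DESeq2 Wald test, 3 with no filter on low counts, 2 with only the groups compared and 2 with a replicate block, and 1 to 2 with each library left out in turn. At 12 weeks it was 4, against 7 with DESeq2, 7 with no filter, 2 with only the groups compared, 2 without WT replicates 3 and 8 and KO replicate 4, and 0 with a replicate block, which shares only 2 numbers; leaving out each library gave 4 to 5. For age in WT it was 0, against 2 with DESeq2 and 1 with no filter. The cause of these differences was not tested. No change in direction occurred for any result tried. Pkm at 6 weeks passed in every setting; the block also took the 12-week calls of Pkm (adjusted p = 0.0503), Ldha, Hif1a and Tpi1. KO and WT libraries of the same number had correlations of deviations from their group means of 0.00309 to 0.0623 at 6 weeks, and not every library correlated best with its own number, so the numbers are not shown to pair the libraries. Over all genes, calls were 149 at 6 weeks (DESeq2 366, no filter 353, block 94, each library left out 82 to 100) and 510 at 12 weeks (DESeq2 1158, no filter 1073, only these groups 204, block 68, left out 328 to 464, without WT replicates 3 and 8 307, also without KO replicate 4 251). For age they were 4 in KO (DESeq2 270, no filter 204, no sex term 16, only these groups 0) and 2 in WT (DESeq2 152, no filter 194, only these groups 0), and for the difference 1 (DESeq2 55, no filter 132). The other scaling moved the median of all genes by at most 0.03 on the log2 scale. Few counts limit Egln3, Vegfa, Ddit4, Gapdh and Pgk1.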
